A study of Mus musculus with 8 samples.

Results

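The 9 genes described here encode molecules of lymphocyte egress, rolling and adhesion: the sphingosine-1-phosphate (S1P) receptors S1pr1 and S1pr4, the egress antagonist Cd69, the oxysterol receptor Gpr183, the selectin ligand Selplg, the hyaluronan receptor Cd44 and the immunoglobulin-family adhesion molecules Icam1, Icam2 and Pecam1. They were chosen by name, and all 9 were found among the 21524 gene symbols of the table. RNA had been sequenced from regulatory T cells (Tregs, Foxp3-dependent CD4 T cells that hold immune responses in check) flow-sorted from mouse spleen, in 4 libraries labelled with the treatment IL-2 (libraries 41 to 44) and 4 labelled control (libraries 45 to 48). The text of the series describes an IL-2 mutein, a modified IL-2, given together with a CTLA-4 Ig co-stimulation block to C57BL/6 recipients of BALB/c hearts or kidneys. The labels of these libraries do not say which form of IL-2 was given, what the controls received, whether the mice carried a graft or received CTLA-4 Ig, or the strain, age, sort gate and number of animals. The p-values below therefore measure the spread between these libraries.

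S1P is plentiful in blood and lymph and scarce inside lymphoid tissue, and a lymphocyte leaves the tissue along that gradient through S1PR1. CD69 binds S1PR1 and draws it from the cell surface, so it holds cells in the tissue. GPR183, also called EBI2, guides cells within the spleen and lymph node towards oxysterols. PSGL-1, the product of Selplg, is the ligand on leukocytes for P-selectin and supports rolling on the vessel wall, CD44 binds hyaluronan in the matrix, and ICAM-1 and ICAM-2 are ligands of the integrin LFA-1. PECAM-1 binds another PECAM-1 molecule on a neighbouring cell and acts at endothelial junctions and on leukocytes.

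Values are normalised reads, recovered from the deposited variance-stabilised values, and groups of 4 libraries are given as mean ± SD. IL-2 libraries held an estimated 4953551 to 6399404 reads each and control libraries 4970829 to 6147506. The Treg label was checked against its markers. Foxp3 had 1643 to 2235 normalised reads in IL-2 libraries and 1123 to 1799 in control libraries, and the T cell receptor subunit gene Cd3e had 2444 to 3044 in IL-2 libraries and 2556 to 3087 in control libraries. Neither passed the test (limma adjusted p = 0.115 and 0.913), but Il2ra, the alpha chain of the IL-2 receptor and a defining Treg marker, was 2.61-fold higher, at 18107 ± 1601 in IL-2 libraries and 6935 ± 781 in control libraries (limma adjusted p = 3.11e-07). The libraries also split by Y-linked transcripts: Ddx3y was at 0 in IL-2 libraries 41 and 42 and in control library 45, and at 216 to 460.5 in the other 5. The split crosses the groups, and values within each side are given below. A transcript level in sorted cells does not tell fewer expressing cells from less RNA per cell.

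Of the 9 genes, 8 passed the filter on low values and were tested, and 6 passed an adjusted p of 0.05 (limma across all 5261 tested genes), against 31.4% of all tested genes. Cd69 and Selplg rose with IL-2, as did 16.8% of tested genes, and Gpr183, Cd44, Icam1 and Pecam1 fell, as did 14.6%. In the same 6 genes the groups did not overlap, which held for 31.5% of all tested genes. S1pr1 and S1pr4 were tested and did not pass. Icam2 had too few reads for the filter and was read in a second limma fit on log2(normalised reads + 5), where it did not pass. The median difference on the deposited log2 scale was -0.13 over the 8 tested members and -0.01 over all tested genes, and the median size of the difference, whatever its sign, was 0.31 and 0.11.

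**Figure D1:**
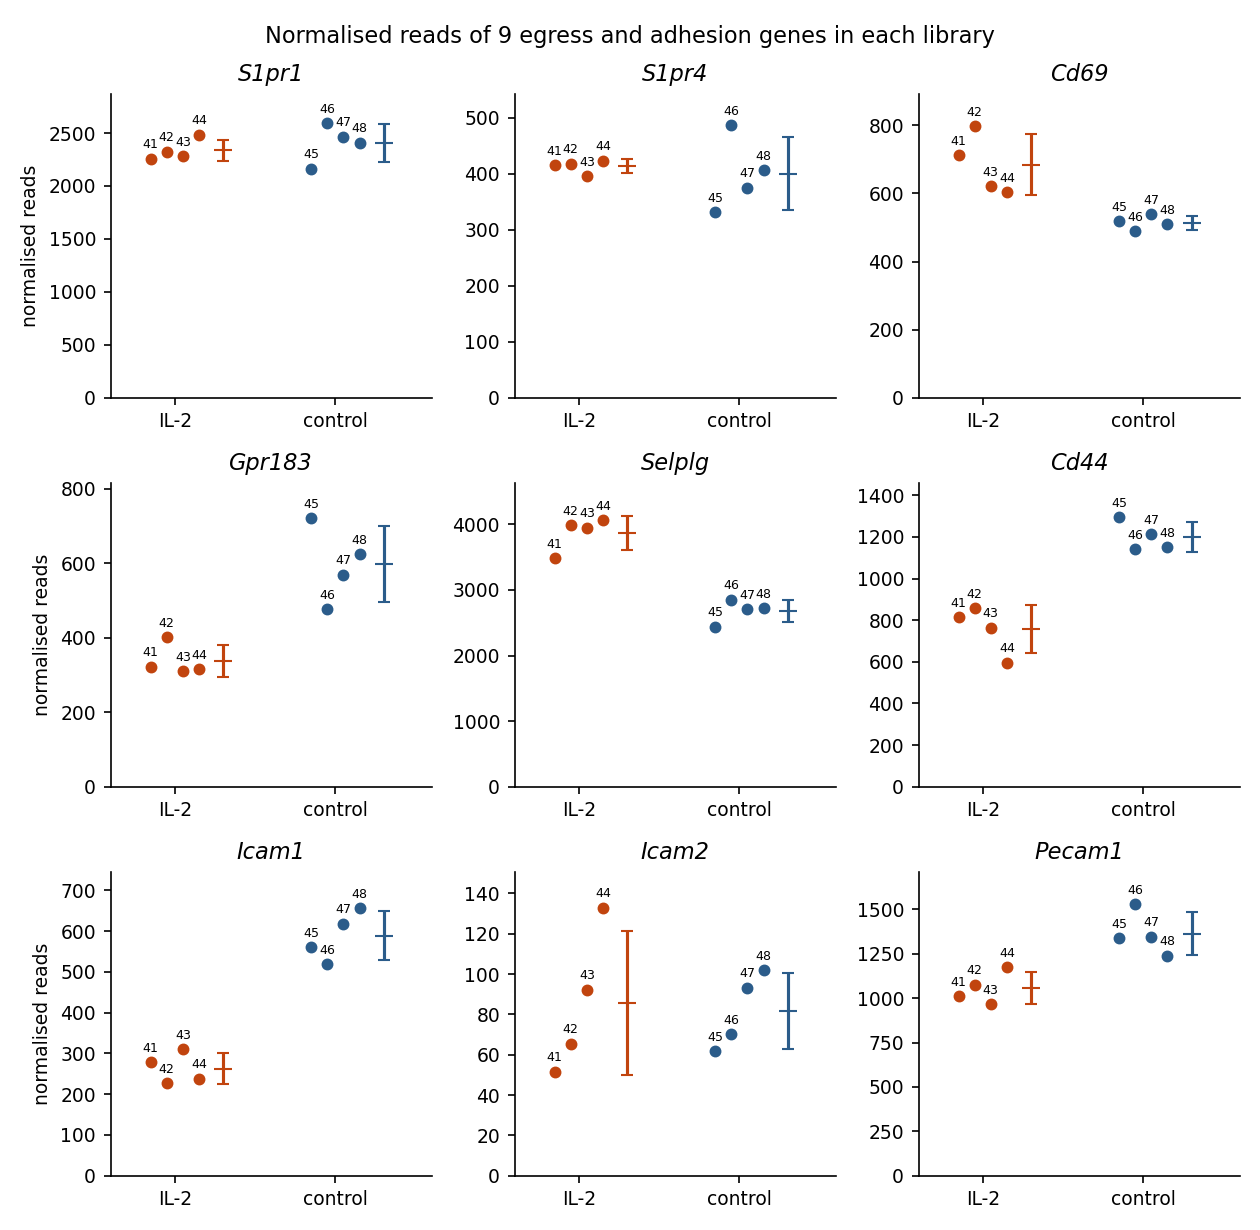
Normalised reads (vertical axes, each from 0) of the 9 genes in the IL-2 libraries (orange, left) and the control libraries (blue, right). Each point is a library with its number, and the bar beside the points is the mean ± SD (n = 4). The groups are apart for Cd69, Gpr183, Selplg, Cd44, Icam1 and Pecam1 and overlap for S1pr1, S1pr4 and Icam2.

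Promoter windows of 300 bases, from 250 before to 50 after the annotated start, were at hand for 4 of the 9 genes from RefSeq (GRCm38.p6, not the authors' build GRCm39). They are shown because 3 of these genes fell with IL-2 and the fourth, S1pr4, did not pass the test. Capitals mark matches on either strand to CACCC, the core bound by KLF factors, to TTCNNNGAA, the core bound by STAT factors, or to the NF-kB consensus.
Icam1 (chr9:21015690-21015989, + strand): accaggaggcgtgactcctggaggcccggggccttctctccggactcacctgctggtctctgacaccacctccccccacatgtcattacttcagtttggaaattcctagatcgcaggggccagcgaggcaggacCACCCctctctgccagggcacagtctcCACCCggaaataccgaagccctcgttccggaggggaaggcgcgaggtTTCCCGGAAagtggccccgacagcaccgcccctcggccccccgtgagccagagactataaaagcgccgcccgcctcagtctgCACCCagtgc
Cd44 (chr2:102901616-102901915, - strand): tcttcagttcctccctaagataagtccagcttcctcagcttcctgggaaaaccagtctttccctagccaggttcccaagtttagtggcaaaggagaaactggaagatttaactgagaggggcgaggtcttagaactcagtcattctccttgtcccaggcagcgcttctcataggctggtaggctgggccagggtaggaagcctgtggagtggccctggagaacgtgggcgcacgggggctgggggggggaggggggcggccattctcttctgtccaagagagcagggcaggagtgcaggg
Gpr183 (chr14:121965144-121965443, - strand): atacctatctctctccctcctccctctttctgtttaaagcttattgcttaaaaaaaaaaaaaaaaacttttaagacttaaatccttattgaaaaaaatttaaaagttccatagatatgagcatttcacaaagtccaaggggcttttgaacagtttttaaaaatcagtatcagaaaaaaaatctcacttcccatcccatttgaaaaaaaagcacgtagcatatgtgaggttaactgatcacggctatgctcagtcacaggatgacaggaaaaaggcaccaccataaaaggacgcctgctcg
S1pr4 (chr10:81500088-81500387, - strand): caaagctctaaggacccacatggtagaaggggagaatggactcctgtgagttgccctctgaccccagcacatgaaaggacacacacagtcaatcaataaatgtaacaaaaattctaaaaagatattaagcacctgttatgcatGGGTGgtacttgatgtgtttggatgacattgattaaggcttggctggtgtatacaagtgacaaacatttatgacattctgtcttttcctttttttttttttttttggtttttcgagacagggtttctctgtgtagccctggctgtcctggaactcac

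The Icam1 window held 3 KLF cores and 1 STAT core, whose first base lay at position -42 counted from the start base as 0. The S1pr4 window held 1 KLF core, on the opposite strand. The windows of Cd44 and Gpr183 held none of the 3 motifs, and the NF-kB consensus, read strictly as GGG, a purine, 2 bases of any kind, 2 pyrimidines and CC, had no exact match in the 4 windows. Sites that differ from it by a base were not counted. Over all 32851 promoter windows of that length, 57.5% held the KLF core, 8.30% the STAT core and 8.46% the NF-kB consensus. No matched motifs overlapped each other in these 4 windows. GC content was 64.7% for Icam1, 58.0% for Cd44, 35.3% for Gpr183 and 41.0% for S1pr4.

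S1pr1, the receptor that carries lymphocytes out of lymphoid tissue, was the more abundant of the 2 S1P receptors per kilobase of transcript. It had 2256, 2325, 2282 and 2484 normalised reads in IL-2 libraries 41 to 44 and 2164, 2591, 2467 and 2408 in control libraries 45 to 48. The groups overlapped, and the lowest and the highest value were both in control libraries. The means were 2337 ± 102 in IL-2 libraries and 2408 ± 179.6 in control libraries (limma log2 difference on the deposited scale -0.03 ± 0.06 SE, adjusted p = 0.710). On log2 normalised reads the 95% interval of the fold, IL-2 over control, ran from 0.871 to 1.08.

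S1pr4 encodes an S1P receptor found mainly on leukocytes. It had 415, 418, 395 and 423 normalised reads in IL-2 libraries 41 to 44 and 331, 486, 375 and 406 in control libraries 45 to 48. The IL-2 values lay close together, inside the range of the controls. The means were 413 ± 12.3 in IL-2 libraries and 399.8 ± 65.3 in control libraries (limma log2 difference 0.02 ± 0.06 SE, adjusted p = 0.794), and the interval of the fold ran from 0.859 to 1.26. The sign of this small difference turned without control library 45 (-0.01).

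Cd69, whose product binds S1PR1 and is an early mark of T cell activation, rose. It had 712, 797, 622 and 603 normalised reads in IL-2 libraries 41 to 44 and 519, 489, 539 and 509 in control libraries 45 to 48. Every IL-2 library exceeded every control, and the 2 highest were those without Ddx3y. Cd69 was 1.33-fold higher, at 684 ± 89.2 in IL-2 libraries and 514 ± 21.0 in control libraries (limma difference 0.21 ± 0.06 SE, adjusted p = 0.0147), and the interval of the fold ran from 1.12 to 1.55. In the 5 libraries with Ddx3y alone it was 1.20-fold higher and did not pass (limma adjusted p = 0.185).

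Gpr183, the receptor for oxysterols, fell. It had 322, 402, 310.4 and 316 normalised reads in IL-2 libraries 41 to 44 and 721, 477, 569 and 624 in control libraries 45 to 48. All IL-2 libraries lay below all controls, with IL-2 library 42 nearest to them. The means were 337 ± 43.1 in IL-2 libraries and 597 ± 102 in control libraries, a fold of 0.565 (limma log2 difference -0.38 ± 0.07 SE, adjusted p = 0.00120), with an interval from 0.462 to 0.708.

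Selplg had the largest rise of the 9 genes on both scales. It had 3481, 3988, 3947 and 4063 normalised reads in IL-2 libraries 41 to 44 and 2439.9, 2850.4, 2705 and 2724 in control libraries 45 to 48. The lowest value of each group was in a library without Ddx3y, and the groups were apart. The means were 3869.8 ± 263 in IL-2 libraries and 2679.9 ± 173 in control libraries, 1.44-fold higher (limma difference on the deposited scale 0.43 ± 0.06 SE, adjusted p = 1.97e-04), with an interval of the fold from 1.29 to 1.61.

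Cd44, a hyaluronan receptor and a mark of antigen-experienced T cells, fell. It had 813, 858, 764 and 596 normalised reads in IL-2 libraries 41 to 44 and 1294, 1140.1, 1213 and 1152 in control libraries 45 to 48. All IL-2 libraries lay below all controls, and library 44 was the lowest. The means were 758 ± 115 in IL-2 libraries and 1199.8 ± 70.7 in control libraries, a fold of 0.631 (limma log2 difference -0.41 ± 0.07 SE, adjusted p = 5.91e-04), with an interval from 0.530 to 0.744. Gene-level values do not separate the standard form of Cd44 from its splice variants.

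Icam1, the inducible ligand of LFA-1, had the largest fall of the 9 genes. It had 278, 227, 310.3 and 238 normalised reads in IL-2 libraries 41 to 44 and 561, 519, 618 and 657 in control libraries 45 to 48. The highest IL-2 library held fewer reads than the lowest control. The means were 263 ± 38.2 in IL-2 libraries and 589 ± 60.9 in control libraries, a fold of 0.447 (limma log2 difference -0.51 ± 0.06 SE, adjusted p = 4.61e-05), with an interval from 0.369 to 0.550. An annotated gene on the opposite strand, Gm47079, overlaps 11.7% of its exon bases. The libraries were made with a stranded kit, but whether reads were assigned by strand is not given in the sources used here.

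Icam2, a constitutive LFA-1 ligand of endothelium, lymphocytes and platelets, had few reads. It had 51.6, 65.5, 92.3 and 133 normalised reads in IL-2 libraries 41 to 44 and 61.6, 70.2, 93.2 and 102 in control libraries 45 to 48. The groups overlapped, and the 3 lowest values were in the 3 libraries without Ddx3y. The means were 85.6 ± 35.7 in IL-2 libraries and 81.7 ± 18.8 in control libraries (limma on log2(normalised reads + 5), difference 0.01 ± 0.30 SE, adjusted p = 0.991). The interval of the fold ran from 0.636 to 1.59, so the data do not tell folds within that range apart. The coefficient of variation was 41.8% with IL-2 and 23.1% in controls, against 10.9% from counting alone at the mean of all 8 libraries.

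Pecam1, which encodes the adhesion molecule CD31, fell by less than the other 3. It had 1012, 1076, 967 and 1175 normalised reads in IL-2 libraries 41 to 44 and 1339, 1529.6, 1346 and 1238 in control libraries 45 to 48. The groups did not overlap, and IL-2 library 44 and control library 48 were the closest pair. The means were 1058 ± 90.4 in IL-2 libraries and 1363 ± 121 in control libraries, a fold of 0.776 (limma log2 difference -0.24 ± 0.06 SE, adjusted p = 0.00940), with an interval from 0.677 to 0.892. In the 5 libraries with Ddx3y alone the adjusted p was 0.0845 (limma).

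**Figure D2:**
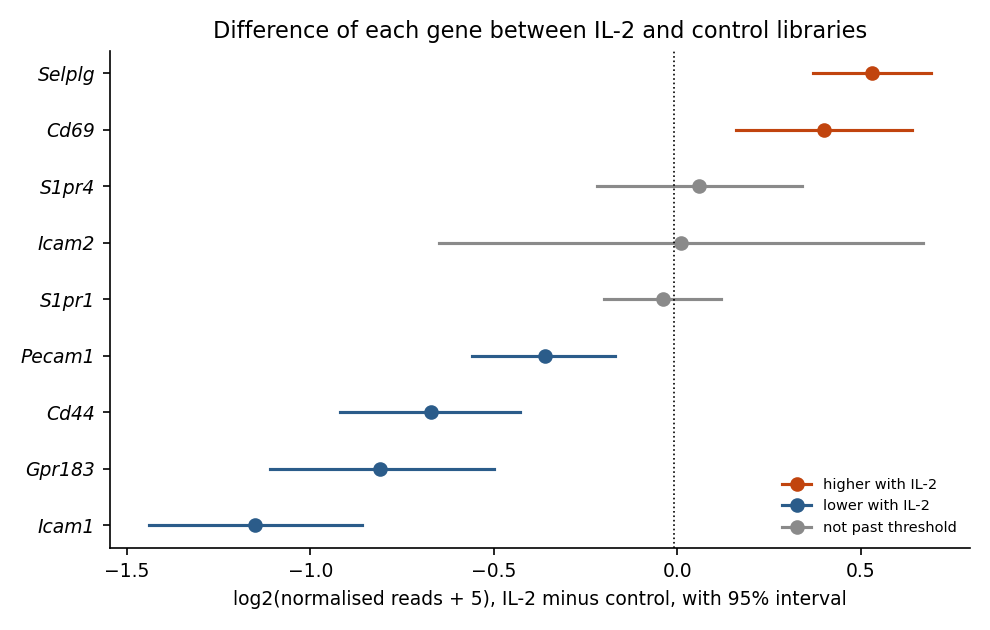
Difference in log2(normalised reads + 5), IL-2 minus control (horizontal axis), for each of the 9 genes, with its 95% interval from limma. Orange genes rose, blue genes fell and grey genes did not pass, and the dotted line is the median of all genes in that fit (-0.01). Selplg lies at 0.53 and Icam1 at -1.15.

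A two-sided exact permutation test over the 70 splits of 4 against 4 libraries gave p = 0.0286, the smallest it can give, for Cd69, Selplg, Gpr183, Cd44, Icam1 and Pecam1. It gave exact p-values of 0.543 for S1pr1, 0.686 for S1pr4 and 0.914 for Icam2.

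The genes varied between libraries of a group in different ways. Among controls, library 46 had the highest values of S1pr1, S1pr4, Selplg and Pecam1 and the lowest of Cd69, Gpr183, Cd44 and Icam1, and library 45 had the lowest of S1pr1, S1pr4, Selplg and Icam2 and the highest of Gpr183 and Cd44. Among IL-2 libraries, library 44 had the highest values of S1pr1, S1pr4, Selplg, Icam2 and Pecam1 and the lowest of Cd69 and Cd44. For Cd69 the coefficient of variation was 13.0% with IL-2 and 4.09% in controls. Counting alone gives 4.09% at the mean of all 8 libraries, and more at the lower mean of the controls. For S1pr4 the coefficient of variation was 2.99% with IL-2 and 16.3% in controls, against 4.96% from counting at the mean of all 8 libraries.

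Levels were set against each other per kilobase of the longest protein-coding transcript in GENCODE M21. Selplg was the most abundant in both groups, at 2086 ± 142 normalised reads per kilobase in IL-2 libraries and 1445 ± 93.0 in control libraries, followed by S1pr1 at 767 ± 33.5 in IL-2 libraries and 790.4 ± 59.0 in control libraries. With IL-2 the order went on with Cd69 (405 ± 52.9), Pecam1 (307 ± 26.3), S1pr4 (173 ± 5.17), Cd44 (135 ± 20.4), Gpr183 (124 ± 15.8), Icam1 (104 ± 15.1) and Icam2 (66.7 ± 27.9). In controls it went on with Pecam1 (396 ± 35.3), Cd69 (305 ± 12.5), Icam1 (232 ± 24.0), Gpr183 (219 ± 37.5), Cd44 (214 ± 12.6), S1pr4 (168 ± 27.4) and Icam2 (63.7 ± 14.7). Neighbours from Cd44 down to Icam2 overlapped between libraries in the IL-2 group, and neighbours from Icam1 down to S1pr4 overlapped in controls. The places of genes with several annotated coding transcripts are uncertain, because these run from 1305 to 5614 bases for Cd44, from 361 to 2724 for Gpr183 and from 359 to 1855 for Selplg. Pecam1, Cd69 and Icam2 also have more than 1.

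Within the libraries with Ddx3y (2 IL-2, 3 control) and without it (2 IL-2, 1 control), each of the 6 genes that passed kept its direction. The fold, IL-2 over control, was 0.458 with Ddx3y and 0.450 without it for Icam1, 0.563 and 0.502 for Gpr183, 0.582 and 0.645 for Cd44, and 0.781 and 0.780 for Pecam1. It was 1.45 and 1.53 for Selplg and 1.20 and 1.45 for Cd69. The folds of S1pr1 were 0.957 and 1.06, those of S1pr4 0.967 and 1.26 and those of Icam2 1.27 and 0.950, so these 3 pointed opposite ways on the 2 sides.

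**Figure D3:**
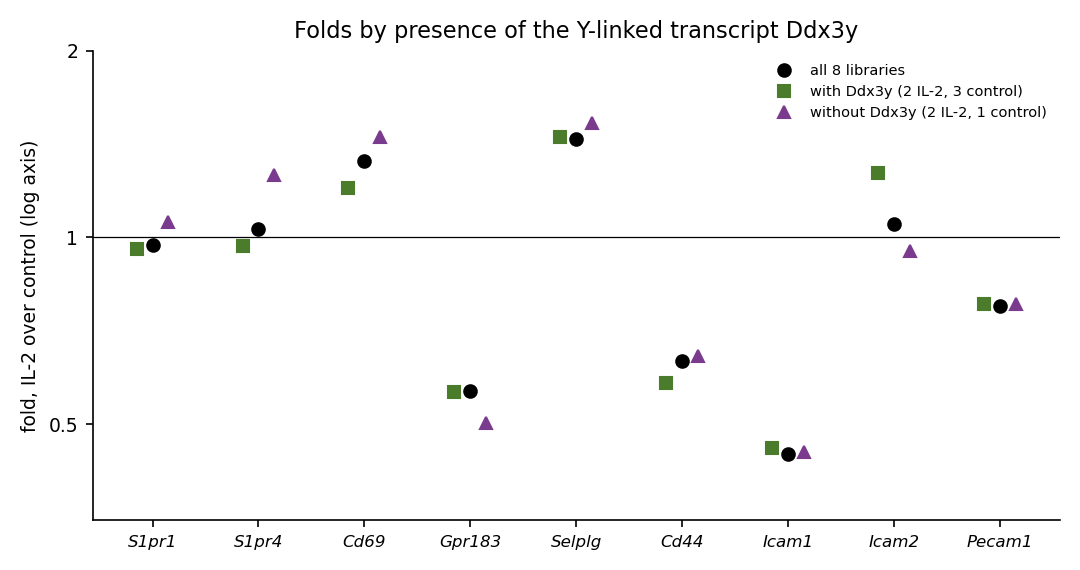
Fold of mean normalised reads, IL-2 over control (vertical log axis), for the 9 genes in all 8 libraries (black circles), in the 5 libraries with Ddx3y (green squares) and in the 3 without it (purple triangles). Icam1 lies at 0.447, 0.458 and 0.450, while S1pr4 lies at 1.03, 0.967 and 1.26.

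Some of the 9 genes are also expressed by B cells, myeloid cells, platelets and endothelium, so markers of these cells were read in the same libraries. Of 12 endothelial markers 8 were at 0 in every library, Cdh5 among them, and their summed level was 0 to 14.0 normalised reads with IL-2 and 1.51 to 11.2 in controls. Platelet markers summed to 3.04 to 25.7 with IL-2 and 6.35 to 57.3 in controls. Among them Ppbp was at 0 in every IL-2 library and at 0.927 to 17.8 in control libraries. Pf4 and Treml1 were also at 0 with IL-2 and had reads in some controls, while Gp1ba had a higher mean with IL-2. Of 7 neutrophil markers 5 were at 0 throughout, with sums of at most 0.948 in IL-2 libraries and 1.04 in control libraries. Erythroid markers summed to 0 to 43.5 with IL-2 and 0 to 84.9 in controls, and those of CD8 T cells to 56.2 to 90.2 in IL-2 libraries and 53.4 to 103 in control libraries.

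The summed levels of B cell, myeloid and NK markers were lower with IL-2, as were Gpr183, Cd44, Icam1 and Pecam1, but each sum rested on a few genes. The 10 B cell markers summed to 109.9 to 215 normalised reads with IL-2 and 405 to 507 in controls (exact permutation p = 0.0286), most of it Cd74 in controls, while the defining gene Ms4a1 had at most 2.73 reads in any library and Cd79b stood at 60.1 ± 31.1 in IL-2 libraries and 42.0 ± 14.1 in control libraries. The 12 myeloid markers summed to 843 to 1069 in IL-2 libraries and 1646 to 1917 in control libraries (exact permutation p = 0.0286), most of it the protease gene Ctss, while Lyz2 was at 0 in IL-2 libraries and at 5.55 to 14.5 in controls and Cd14 was at 0 throughout. Cd68 stood at 17.2 ± 7.98 in IL-2 libraries and 13.4 ± 7.15 in control libraries, and Fcer1g at 6.07 ± 5.19 in IL-2 libraries and 3.21 ± 2.05 in control libraries. The 5 NK markers summed to 61.4 to 105 in IL-2 libraries and 112 to 203 in control libraries (exact permutation p = 0.0286). Among them Eomes had 7.28 ± 13.1 in IL-2 libraries and 58.8 ± 14.8 in control libraries and Klrb1c 2.90 ± 3.53 in IL-2 libraries and 36.4 ± 29.5 in control libraries, while Prf1, most of the sum with IL-2, stood at 61.4 to 96.3 in IL-2 libraries and 34.5 to 73.4 in control libraries, with overlapping groups. The T cell coreceptor gene Cd4 was also lower, at 2523 ± 354 in IL-2 libraries and 4136 ± 299.6 in control libraries (limma adjusted p = 1.49e-04). The part of these markers in the 4 falls was not tested.

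The partners of the 9 genes were taken from 8 lists holding 120 symbols, of which 119 were in the table and 69 passed the filter. Of these 69, 15 rose (21.7%, against 16.8% of all tested genes) and 19 fell (27.5%, against 14.6%), with a median difference of -0.02 on the deposited scale, against -0.01 over all tested genes.

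Few genes of S1P handling had enough reads for the main filter. Of 13 genes for the other S1P receptors and for making, carrying and breaking down S1P, only Sgpl1, the S1P lyase, and Sgpp1, an S1P phosphatase, passed the filter, and neither passed the test. Sgpl1 stood at 319 ± 39.8 normalised reads in IL-2 libraries and 405 ± 22.1 in control libraries (limma adjusted p = 0.0531, 0.0375 with each library centred on its median and 0.0725 on log2(normalised reads + 5)) and Sgpp1 at 393 ± 46.5 in IL-2 libraries and 445 ± 48.1 in control libraries (adjusted p = 0.308). The groups of Sgpl1 did not overlap. After quantile normalization 1 gene of this list was also lower past the threshold. S1pr3, S1pr5 and the sphingosine kinase gene Sphk1 were at 0 in all 8 libraries. A single library at 0 allows up to 3 reads as far as counting goes, and 0 in all 8 allows fewer per library. The other sphingosine kinase gene, Sphk2, was expressed below the main filter, at 166 ± 19.2 in IL-2 libraries and 181 ± 24.6 in control libraries (limma on log2(normalised reads + 5), adjusted p = 0.689). S1pr2, a receptor that opposes migration, had 33.6 to 61.7 normalised reads in IL-2 libraries and 58.5 to 82.6 in control libraries (limma on log2(normalised reads + 5), adjusted p = 0.140).

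Of 14 tested genes of egress signalling and its regulators, 2 rose and 3 fell, with a median difference of 0.01. Gnai2, the G protein subunit through which S1PR1 signals, had 5018 ± 151 normalised reads in IL-2 libraries and 4054 ± 362 in control libraries (limma adjusted p = 0.00518). Klf2, the transcription factor that drives S1pr1 in T cells, had 1555 ± 84.1 in IL-2 libraries and 1209 ± 254 in control libraries. It passed narrowly (limma adjusted p = 0.0389), its groups overlapped, and it did not pass when any one of libraries 41 to 46 or 48 was left out (adjusted p = 0.0522 to 0.0917) or on log2 normalised reads (0.0594). Foxo1, which acts upstream of Klf2, fell to 2272 ± 310.4 in IL-2 libraries, against 3219 ± 446 in control libraries (limma adjusted p = 0.00604). The groups of Foxo1 also overlapped (exact permutation p = 0.0571). Dock2, an activator of Rac in lymphocyte migration, and Stat3 also fell, Dock2 to 10477 ± 389 in IL-2 libraries, against 12847 ± 361 in control libraries (limma adjusted p = 0.00137) and Stat3 to 1589 ± 182 in IL-2 libraries, against 2139 ± 244 in control libraries (adjusted p = 0.00684).

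Among genes that position cells together with GPR183, Ccr7 and Cxcr5 fell and none of the 3 tested rose. These encode chemokine receptors for the T zone and the follicle. Cxcr5 had 96.5 ± 44.0 normalised reads in IL-2 libraries and 630.4 ± 139 in control libraries (limma adjusted p = 7.54e-06), and Ccr7 had 227 ± 44.5 in IL-2 libraries and 446 ± 22.7 in control libraries (adjusted p = 2.94e-04). Cxcr5 passed the main filter through the control libraries alone. Hsd11b1, a steroid dehydrogenase, stood at 314 ± 54.4 in IL-2 libraries and 235 ± 49.1 in control libraries (limma adjusted p = 0.103, and 0.0379 when IL-2 library 43 was left out). The oxysterol-making genes Ch25h and Cyp7b1 were at 0 in all 8 libraries.

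Of 6 tested selectin and selectin ligand genes, 1 rose and 1 fell. St3gal4, a sialyltransferase that builds the glycan by which PSGL-1 binds selectins, had 342 ± 51.8 normalised reads in IL-2 libraries and 185 ± 49.8 in control libraries, 1.85-fold higher (limma adjusted p = 0.00339). It passed the main filter through the IL-2 libraries, as only control library 46 also reached the filter's level. Spn, which encodes the mucin CD43, fell to 5274 ± 352 in IL-2 libraries, against 6239 ± 401 in control libraries (limma adjusted p = 0.0186), and the adjusted p was 0.0583 when IL-2 library 41 was left out and 0.0593 when control library 47 was. Fut7, the fucosyltransferase of the same glycan, had 53.9, 68.3, 57.6 and 50.5 normalised reads in IL-2 libraries 41 to 44 and 23.7, 17.9, 9.14 and 26.0 in control libraries 45 to 48. These were too few for the main filter, and on log2(normalised reads + 5), where 19.9% of 10777 genes passed, Fut7 was higher by 1.43 ± 0.33 SE (limma adjusted p = 0.00974). In the same fit Selp, the gene of P-selectin, which platelets and endothelium also express, was lower (difference -1.90 ± 0.44 SE, limma adjusted p = 0.00962), with a mean of 0.950 normalised reads in IL-2 libraries, where it was at 0 in all but library 41, and 16.9 ± 4.91 in control libraries. Selp entered that fit through the control libraries alone, so its test adds no support beyond these values. B4galt1 and Tpst2 stood at 729 ± 87.7 and 222 ± 49.0 with IL-2, against 807 ± 52.7 and 253 ± 44.3 in controls (limma adjusted p = 0.298 and 0.487).

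Of 9 tested integrin genes, 2 rose and 4 fell, with a median difference of -0.14. Itgal, the alpha chain of LFA-1 and so of the receptor for ICAM-1 and ICAM-2, had 2536, 2694, 2808 and 1959 normalised reads in IL-2 libraries 41 to 44 and 4253, 4288, 4999.9 and 4751 in control libraries 45 to 48. All IL-2 libraries lay below all controls, with a fold of 0.547 (limma log2 difference -0.72, adjusted p = 5.46e-05). Its partner chain Itgb2 stood at 3086 ± 376 in IL-2 libraries and 3458 ± 300.4 in control libraries (limma adjusted p = 0.188). Leaving out IL-2 library 42 gave an adjusted p of 0.0346. The chains of VLA-4, Itga4 and Itgb1, both fell, with folds of 0.709 and 0.577 (limma adjusted p = 6.16e-05 and 2.42e-05), while Itgb7, which pairs with Itga4 to bind the gut addressin, rose 1.39-fold (adjusted p = 0.00212). The other gene counted as higher, the laminin-binding chain Itga6, had 1850.0 ± 229.6 in IL-2 libraries and 1542 ± 57.4 in control libraries, with overlapping groups, and passed narrowly (limma adjusted p = 0.0495). Itga6 did not pass without the filter, after quantile normalization or median centring, on log2 reads or without the trend. Nor did it pass when any one of libraries 41 or 43 to 48 was left out (limma adjusted p over all these settings 0.0508 to 0.122). In those settings 1 integrin gene was higher. Itga6 did pass with the stricter filter, robust limma, array weights, Ddx3y as a covariate, the Ddx3y libraries alone and without library 42 (limma adjusted p = 0.0131 to 0.0457).

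Of 13 tested genes of integrin activation, 3 rose and 3 fell. Zyx, which encodes the adhesion-site protein zyxin, had 859 ± 48.8 normalised reads in IL-2 libraries and 456 ± 102 in control libraries (limma adjusted p = 2.84e-04). Fermt3, the kindlin of blood cells, rose 1.29-fold (limma adjusted p = 0.00567). Fyb, which encodes the adaptor ADAP, fell to 4588 ± 204 in IL-2 libraries, against 6631 ± 276 in control libraries (limma adjusted p = 4.32e-05), and Stk4, the kinase MST1, fell to 3553 ± 169.6 in IL-2 libraries, against 4304 ± 149 in control libraries (adjusted p = 0.00459).

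Among 7 tested cortical linkers and partners of CD44, 2 rose and 1 fell. Lgals1, the gene of galectin-1, had 1886 ± 412 normalised reads in IL-2 libraries and 698 ± 56.0 in control libraries (limma adjusted p = 1.70e-05), and Cd74 fell to 88.5 ± 40.1 in IL-2 libraries, against 396 ± 35.4 in control libraries (adjusted p = 1.95e-05). Cd74 passed the main filter through the control libraries alone. Msn, the gene of moesin, which links CD44 and PSGL-1 to actin, had 10206 ± 302 in IL-2 libraries and 9066 ± 266 in control libraries (limma adjusted p = 0.0285). The difference turned to -0.04 after quantile normalization (adjusted p = 0.553), and it no longer passed when any one of libraries 41, 42, 45, 46 or 48 was left out (adjusted p = 0.0590 to 0.0712). Ezr, the gene of the related linker ezrin, stood at 2579 ± 109.6 in IL-2 libraries and 2459.6 ± 88.9 in control libraries (limma adjusted p = 0.459).

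Of 15 tested other adhesion molecules, 5 rose and 5 fell. Jaml, which encodes a junctional adhesion molecule of leukocytes, had 332, 226, 427 and 324 normalised reads in IL-2 libraries 41 to 44 and 24.0, 19.2, 5.71 and 8.10 in control libraries 45 to 48. The mean was 23.0-fold higher with IL-2 (limma log2 difference on the deposited scale 0.98, adjusted p = 2.80e-06). Jaml passed the main filter through the IL-2 libraries alone. Cd2, the receptor for CD48, rose 1.47-fold (limma adjusted p = 5.80e-05). Cd6, a receptor for the adhesion molecule ALCAM, fell to 1414 ± 139 in IL-2 libraries, against 2530.0 ± 226 in control libraries (limma adjusted p = 2.92e-05), and Emb, the gene of embigin, fell to 325 ± 29.9 in IL-2 libraries, against 734 ± 104 in control libraries (adjusted p = 3.64e-05).

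**Figure D4:**
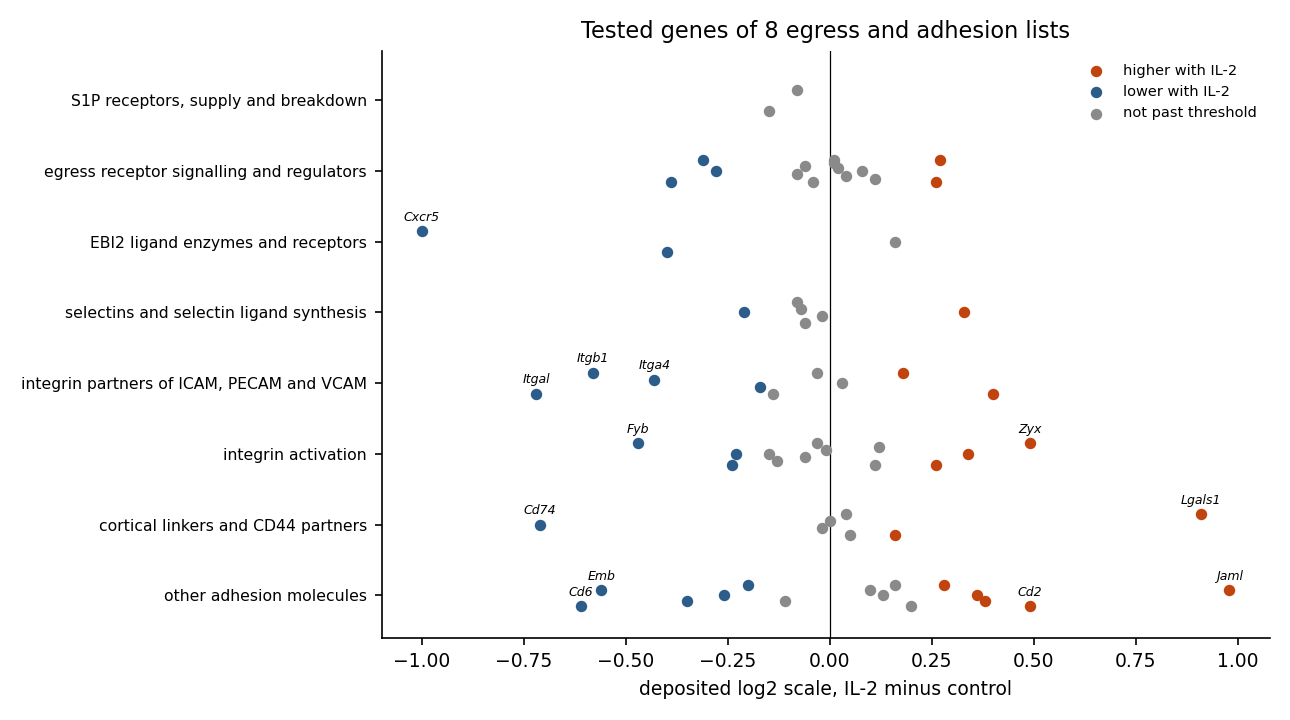
Difference on the deposited log2 scale, IL-2 minus control (horizontal axis), of each tested gene in 8 lists of partner genes (rows). Orange points rose, blue points fell and grey points did not pass, and genes beyond 0.4 are named. Jaml lies at 0.98, the farthest to the right, and Cxcr5 is the farthest to the left.

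For each of the 6 genes that passed, the tested genes with the most similar profile were sought among 5216, by the root-mean-square distance between log2 profiles over the 8 libraries, each centred on its own mean. The nearest to Cd69 were Necap2 (distance 0.0511) and Cyba (0.0718), and the nearest to Selplg were Raly (0.0361) and Ldha (0.0604). The nearest to Gpr183 were Lax1 (0.122) and Calcrl (0.125), and to Cd44 Epc1 (0.0757) and Jade2 (0.0829). The nearest to Icam1 were Syt11 (0.0782) and Zc3h12d (0.151), and to Pecam1 Stag2 (0.0513) and Cep120 (0.0610).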

How the data were processed

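Total RNA of flow-sorted spleen Tregs was made into libraries with a stranded total RNA kit for small inputs, per the labels' protocols. The authors deposited variance-stabilised values on a log2 scale, named after DESeq2. The submitters' processing notes name Salmon, DESeq2 and the build GRCm39 but give no order or settings. The lowest value, 8.69, stands for 0 reads. Inverting the tool's parametric transformation, whose scale that value fixes, gave normalised reads. Of 40 common low values, 39 were whole multiples of 1 read within 0.001. Differences on the deposited scale understate folds, and 1 unit above the lowest value is 206 normalised reads. The deposited values are variance-stabilised and are not counts, so no count test was run.

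Genes with at least 4 of 8 libraries at least 1 above the lowest value (5261) were fitted with limma (eBayes with trend), with Benjamini-Hochberg adjustment. The second fit took 10777 genes with at least 10 normalised reads in at least 4 libraries. For genes that passed a filter through a single group, the test adds no support beyond their values. Folds are ratios of group means of normalised reads, and their intervals come from the second fit. Intervals rest on the spread between libraries, and counting errors leave out technical steps before sequencing. The limma step was tested on simulated data. The members, lists, filter and tests were chosen with earlier results of these data known. Named genes were the 9 members, up to 4 genes per list with the smallest adjusted p and 9 others chosen for their roles, and the 2 nearest profiles per member. Genes named for being at 0, single marker genes, Itga6, Selp, Sphk2, and the further partners in the closing section, were picked with their values in view. A few genes covered by this rule are left out here. The fits by Ddx3y were added after seeing the data. The list symbol Fyb1 was matched to Fyb through RefSeq synonyms. The software was limma 3.58.1 in R 4.3.3, and scipy 1.17.1, numpy 2.4.6, pandas 2.3.3 and matplotlib 3.10.9 in Python 3.11.15.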

Additional observations from a re-analysis of the deposited data

Results flagged for a closer look

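Among 84 groups of 4 libraries (44 genes, each group examined where its values differed), 10 held a library far from the other 3, and chance gives about 1 in 20 groups. Of the 9 members, only Gpr183 was among them, with 402 normalised reads in IL-2 library 42, against 310.4 to 322 in the other IL-2 libraries. St3gal4 had 419 in IL-2 library 41, against 309.9 to 325, and 259 in control library 46, against 153 to 164. Itgb1 had 2218 in control library 48, against 2435 to 2465, and Itga4 had 6224 in control library 45, against 5873 to 5915. Fyb had 4285 in IL-2 library 43, against 4658 to 4719.8, and 7045 in control library 48, against 6473 to 6505. Zyx had 787 in IL-2 library 44, against 873 to 889. Itgb2 had 3649 in IL-2 library 42, against 2871 to 2915, and S1pr2 had 61.7 in IL-2 library 41, against 33.6 to 36.7.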

How the results depend on the processing

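No paired analysis was possible because the IL-2 and control libraries share no replicate numbers. The counts of 2 members higher and 4 lower were the same without a filter, with either normalization, on either log scale of reads, with the other limma settings, with Ddx3y as a covariate and without any 1 library. The stricter filter tested 1519 genes, dropped Cd69, Gpr183, S1pr4 and Icam1, and left 1 member higher and 2 lower. In all, 380 genes were then higher and 357 lower, against 883 and 767. Of the 2 lower members, Cd44 passed the stricter filter through the control libraries alone, so its test there adds no support beyond its values. In the 5 libraries with Ddx3y alone, 560 genes were higher and 1 member, Selplg, was higher, and Cd69 (0.13, limma adjusted p = 0.185) and Pecam1 (-0.23, 0.0845) no longer passed. That fit has fewer libraries. There S1pr4 turned to -0.02, and leaving out each library gave it -0.01 to 0.07. Leaving out each library gave 757 to 828 genes higher and 621 to 707 lower, and highest adjusted p-values of 0.0407 for Cd69 (without control library 46) and 0.0324 for Pecam1 (without IL-2 library 43). Among partner genes, Msn turned to -0.04 after quantile normalization. In the 5 libraries with Ddx3y alone, 9 of the 34 partner genes that had passed no longer did: St3gal4, Fermt3, Klf2, Msn and Sema4d among those higher (adjusted p = 0.0656, 0.0689, 0.0897, 0.207 and 0.256) and Cd226, Spn, Cd82 and Itgav among those lower (0.0515, 0.0901, 0.113 and 0.123). The cause was not tested. The median difference of all genes was never below -0.02 under any scaling. At the mean of all 8 libraries, counting alone gives a coefficient of variation of 10.9% for Icam2, 13.6% for S1pr2, 16.1% for Fut7 and 21.7% for Rgs18. It is larger in the group with fewer reads, which for Fut7 and Rgs18 is the controls.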

Other observations

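Other partner genes, chosen after their values were seen, also differed between the groups. Cd48, the ligand of CD2, had 1092 ± 115 normalised reads in IL-2 libraries and 698 ± 63.1 in control libraries (limma adjusted p = 5.65e-04), so that both sides of that pair rose. Cd47, which restrains phagocytosis, rose 1.40-fold (limma adjusted p = 0.00122). Cd226, an activating receptor for nectin-family ligands, fell to 244 ± 78.0 in IL-2 libraries, against 435 ± 76.2 in control libraries (limma adjusted p = 0.00791, and 0.0515 in the 5 libraries with Ddx3y alone), and Cd99l2, an adhesion molecule of the CD99 family, fell to 143 ± 30.7 in IL-2 libraries, against 247 ± 15.8 in control libraries (adjusted p = 0.00556). Cd99l2 passed the main filter through the control libraries alone.

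Several genes were too low for the main filter and passed limma on log2(normalised reads + 5). Among regulators of G protein signalling, Rgs16 had 37.3 ± 23.6 normalised reads in IL-2 libraries and 159 ± 55.3 in control libraries (adjusted p = 0.00577), while Rgs18 had 38.6 ± 10.4 in IL-2 libraries and 3.99 ± 5.56 in control libraries (adjusted p = 0.00320). Rgs18 entered that fit through the IL-2 libraries, as only control library 45 also held 10 reads, so its test adds no support beyond these values. Plxnb2, which encodes a plexin receptor for semaphorins, had 139 ± 53.2 in IL-2 libraries and 36.9 ± 10.6 in control libraries (adjusted p = 0.00274). The tetraspanin gene Cd9 had 74.4 ± 13.0 in IL-2 libraries and 129.7 ± 7.61 in control libraries (adjusted p = 0.0186).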
